A study of Mus musculus with 6 samples.

Results

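The genes described here copy DNA in S phase. They are 40 named genes of origin licensing, helicase activation, polymerases, clamp and clamp loader, Okazaki fragment maturation, nucleotide synthesis and S phase control, and all 40 were found by symbol among the 33924 genes of the processed table. The tissue was RPE/choroid: the retinal pigment epithelium (RPE), which sits under the photoreceptors, removed along with the choroid, its vascular bed. Libraries of total RNA depleted of ribosomal RNA came from 3 young and 3 aged C57BL/6J mice, all labelled male, each from a pool of both eyes per the methods of the study, which name both sexes. The labels give the young mice as 1 to 2 months old, while the methods of the study give a higher range. The aged mice are 20 to 24 months old in the titles and 22 to 24 months in the time label.

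The level of each gene is the authors' mean normalized count over all 6 libraries. The processed table holds no value per mouse, so no SD, no range over animals and no depth per library can be given, and differences between genes are described without a test. The columns in which the authors compared young with aged mice were not used here. Neither age group is therefore described on its own, and every level below blends young and aged tissue.

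DNA replication starts when the origin recognition complex (ORC) with Cdc6 and Cdt1 loads the ring of Mcm2 to Mcm7 onto DNA before S phase. Cdc45 and the GINS complex then turn the ring into an active helicase. Polymerase alpha with primase starts each strand, the RFC complex loads the sliding clamp PCNA, and polymerases delta and epsilon extend. The replication protein A (RPA) complex covers single-stranded DNA. Most RPE cells of the adult mouse do not divide, while the choroid holds vascular, pigment and immune cells that can. In a bulk sample, the share of cells that express a gene and the amount of RNA per cell cannot be told apart.

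Many replication genes are textbook targets of E2F, so promoters were searched for the letters of its sites. RefSeq promoters of build GRCm38.p6, from 250 bases before to 50 after the start, were matched for 32 members. Mcm4, Gins1, Gins2, Gins4, Pole, Prim2, Rfc2 and Ccne2 had no entry in the sequence table. The motifs TTTCCCGC and TTTGGCGC, on either strand, were found in the promoters of 10 of the 32 genes (31.2%), against 1.80% of all 27025 genes with a promoter and 2.40% of the 16521 that are protein-coding. Of the other listed genes of replication and cell cycle control, 14 of 55 with a promoter (25.5%) held one too. The 10 genes were Mcm3, Mcm5, Mcm6, Mcm7, Cdc6, Cdt1, Gins3, Pola1, Pold1 and Rfc3. The letters CCAAT, on either strand, were found in 62.5% of the members and 41.1% of all genes. The 6 members with a motif upstream of the RefSeq start are printed here, to show the motifs of these licensing, helicase and polymerase genes and the bases around them. Cdc6, Gins3 and Mcm7 hold TTTCCCGC, and Mcm5, Mcm6 and Pola1 hold TTTGGCGC. The windows of Cdc6, Gins3 and Mcm7 lie inside the gene as GENCODE draws it, which starts farther upstream. Each is read along the gene's strand with the motif or its reverse complement in capitals.
Cdc6, chr11:98908002-98908031, plus strand: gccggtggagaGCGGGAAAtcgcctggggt
Gins3, chr8:95633507-95633536, plus strand: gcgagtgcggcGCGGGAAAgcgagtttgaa
Mcm5, chr8:75109349-75109378, plus strand: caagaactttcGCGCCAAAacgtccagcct
Mcm6, chr1:128359797-128359826, minus strand: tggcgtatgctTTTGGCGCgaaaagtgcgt
Mcm6, chr1:128359734-128359763, minus strand: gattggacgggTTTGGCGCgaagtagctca
Mcm7, chr5:138172030-138172059, minus strand: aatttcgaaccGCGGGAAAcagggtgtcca
Pola1, chrX:93632275-93632304, minus strand: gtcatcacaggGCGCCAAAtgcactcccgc

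The labelled tissue was checked against marker genes. Of the 7 RPE markers, 6 had a mean of at least 10046 normalized counts, and Best1 was low with 69.8. Pigment genes listed as melanocyte markers had 7838 to 89145, and they do not tell melanocytes from the pigmented RPE. Markers of endothelium (1025 to 6377) and macrophages (1224 to 4063) were present, with 4 of 5 macrophage markers found by symbol. Rod photoreceptor markers (5787 to 48191), skeletal muscle markers (11414 to 51830) and lens markers (535 to 1973) were present too. Their part in the levels of replication genes was not tested.

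The members spanned a wide range of abundance. Their mean normalized counts ran from 26.5 for Fen1, which removes the flap of Okazaki fragments, to 3468 for Rpa1, the large subunit of RPA (GRCm38 chromosome 11, 75298166 to 75348324, minus strand). The median was 173, and 27 of the 40 reached at least 100 normalized counts, a level that 37.9% of all 33924 genes reached. That share counts noncoding genes and genes at 0. Among coding genes above 0 the median was 326, and 11 members lay above it. Together the members held 0.0765% of all normalized counts. Rpa1 exceeded 96.4% of the genes above 0. The 5 most abundant, Rpa1, Rfc1, Pcna, Mcm6 and Rrm1, held 53.2% of the members' sum.

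Genes were compared with each other per kilobase of the longest coding sequence annotated by GENCODE. The methods of the study say that normalized counts were made from TPM values, a relative abundance of transcripts that already corrects for length. Its results name read counts as the input of DESeq2. It was therefore checked whether the levels still moved with length. Among coding genes above 0, the median level as deposited rose from 154 in the shortest of 4 length classes, with a median coding length of 552 bases, to 233, 335 and 680 in the longest, with 3012 bases. Per kb of coding sequence the class medians were 292, 218, 207 and 211. In classes of transcript length, the medians per kb of transcript still rose, from 61.5 to 92.0, 117 and 135, so that scale kept a trend with length. The levels thus moved with length across genes, but the sources used here do not say how the transformation treated it, and for a single gene the division may correct too much. Ratios as deposited are therefore given beside most of the ratios between genes. All comparisons between genes below are on this scale, in mean normalized counts per kb, unless the longest coding transcript is named as the length. On this scale the median member had 120, against 223 for the 16652 coding genes above 0. Of the members, 10 lay above that median of coding genes and 30 at or below it. When the coding genes were cut into 4 equal classes by level, 6 members fell in the lowest, 24 in the next, 8 in the one above and 2, Rpa1 and Pcna, in the highest. With transcript length, 13 members lay above the median of coding genes, of which 9 were among the 10. As deposited, 11 members lay above the median coding gene, which had 326 mean normalized counts.

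**Figure D1:**
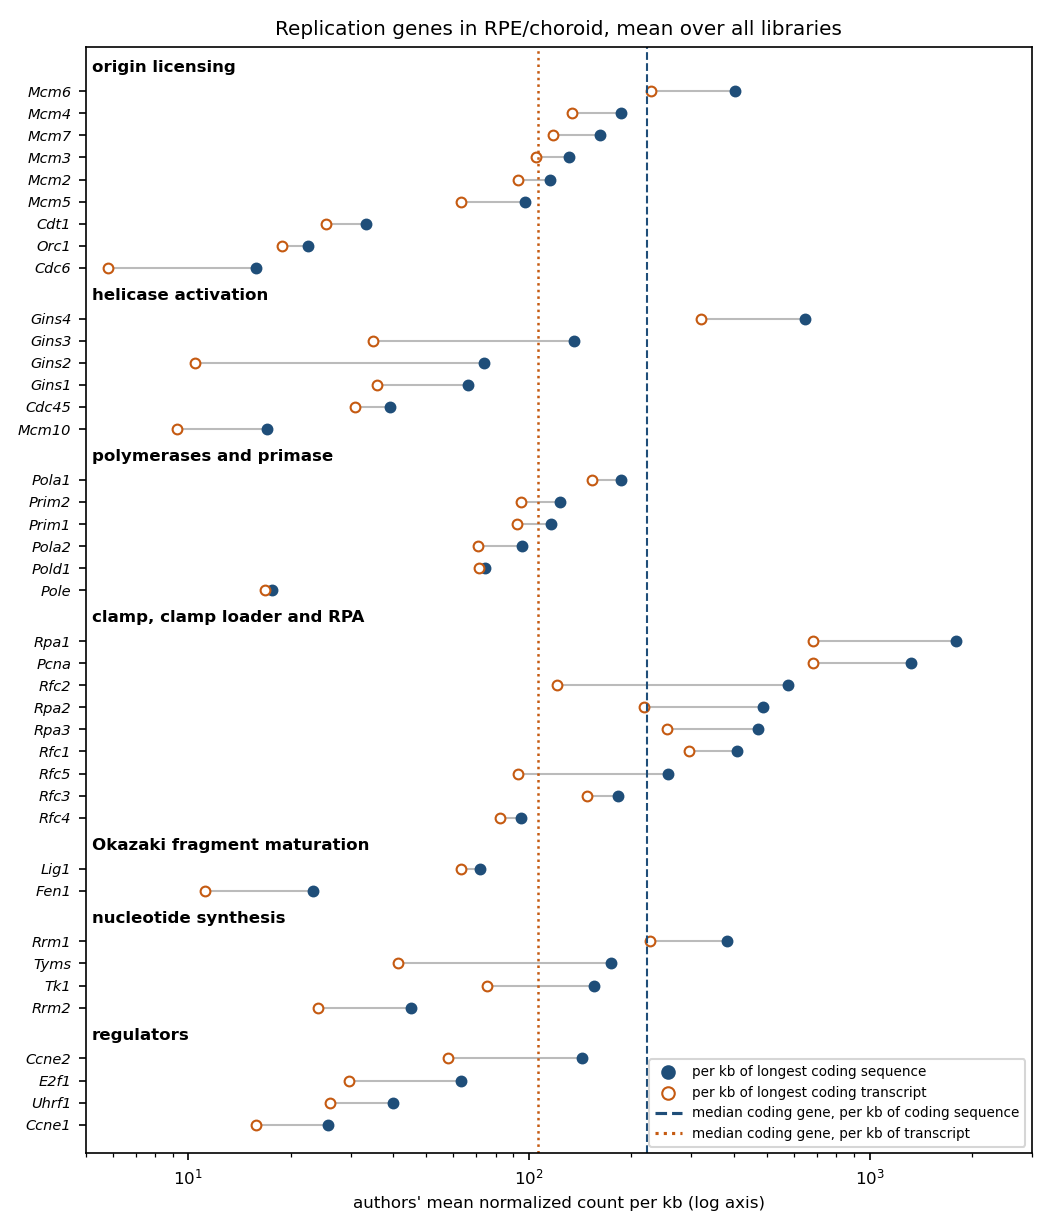
Each row is 1 member, grouped by role, with its mean normalized count over all libraries per kb of the longest coding sequence (filled) and per kb of the longest coding transcript (open) on a log axis. Rpa1 and Pcna lie farthest to the right and Cdc6, Mcm10 and Pole farthest to the left on the coding scale, and the dashed line marks the median coding gene at 223.

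Origin licensing genes split into the Mcm ring and its loaders. The 6 ring genes ran from 97.3 per kb for Mcm5 to 402 for Mcm6, a 4.13-fold range. Between them lay Mcm2 with 115, Mcm3 with 131, Mcm7 with 161 and Mcm4 with 186. Mcm6 stood 2.16 times above Mcm4, the next gene, and was the only ring gene above the median of coding genes on this scale, while by transcript length Mcm4 and Mcm7 were above it as well. The 3 loading genes among the members were lower than any ring gene. Cdc6, the ATPase that joins ORC at the origin (GRCm38 chromosome 11, 98907801 to 98923940, plus strand), had 15.8 per kb, the lowest of all members, and Cdt1, its partner in loading, had 33.2. Orc1, the largest subunit of ORC, had 22.5.

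Orc1 was far below the other subunits of its complex. Orc2 to Orc6, which are no members, ran from 326 per kb for Orc5 to 928 for Orc4, so that the lowest of them stood 14.5 times above Orc1. On the other scales the lowest was Orc6, at 10.7 times Orc1 by transcript length and 5.19 times as deposited. Orc1 was at 56.7 mean normalized counts, and the other subunits were between 294 for Orc6 and 1499 for Orc3.

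Helicase activation genes included some of the lowest members. Mcm10, which helps the helicase leave the origin, had 17.0 per kb, and Cdc45, a fixed part of the active helicase, had 39.0. Among the GINS genes, Gins4 had 646 per kb and was the third highest of all members. Gins1, Gins2 and Gins3 had 66.3, 73.7 and 136. Gins4 was thus 4.76 times above Gins3, although the subunits join in a complex with 1 copy of each. By transcript length the ratio of Gins4 to Gins3 was 9.17, and as deposited 4.91.

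Polymerase alpha and primase were the most even of the complexes taken whole on both length scales. Pola1, the catalytic subunit, had 186 per kb, Prim2 124, Prim1 116 and Pola2 95.5, a 1.95-fold range from the highest to the lowest. As deposited the range was 5.60-fold, and polymerase delta (2.80) and the Mcm ring (4.62) were more even. The catalytic subunits of the other polymerases of the fork were lower. Pold1, of polymerase delta, had 74.4 per kb and Pole, of polymerase epsilon, had 17.6. Their accessory subunits, which are no members, were all higher per kb. Pold2, Pold3 and Pold4 had 152, 434 and 1230, and Pole2, Pole3 and Pole4 had 53.3, 1393 and 5473. Pole4 was thus 311 times above Pole per kb of coding sequence, 65.7 times by transcript length and 16.2 times as deposited. Pole3 and Pole4 are histone-fold proteins, and Pole3 is also known from a chromatin remodelling complex. As deposited, without division by length, Pold2 was below Pold1 (ratio 0.867) and Pole2 below Pole (ratio 0.700), so the order of these pairs rests on the length correction.

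**Figure D2:**
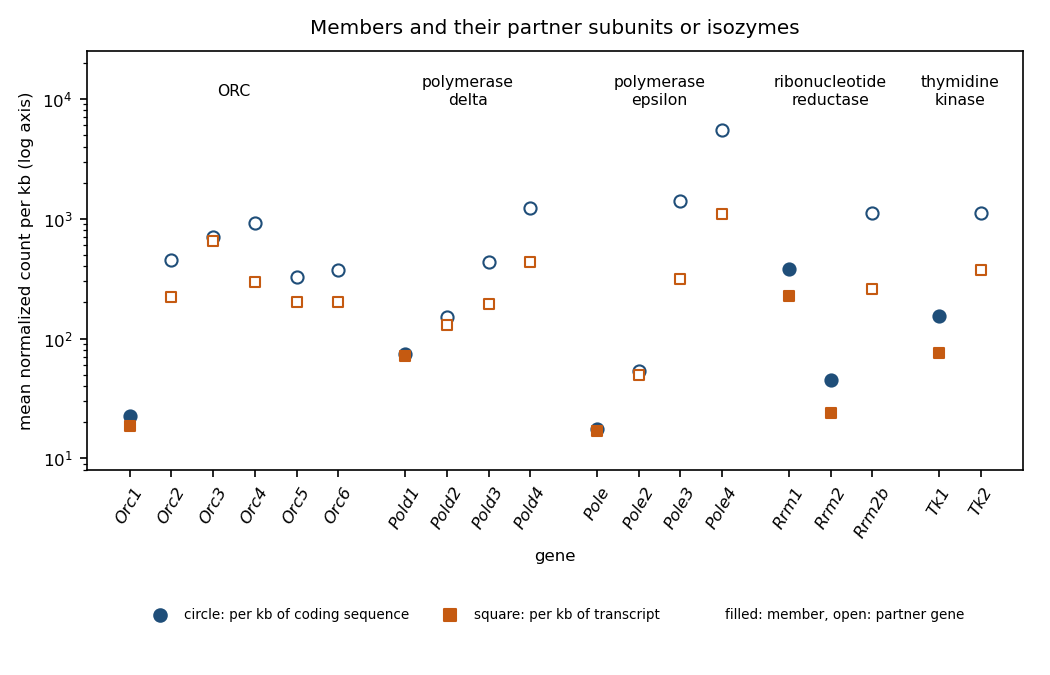
Members (filled) and their partner subunits or isozymes (open) by mean normalized count per kb of coding sequence (circles) and per kb of the longest coding transcript (squares), on a log axis. Orc1, Pold1, Pole, Rrm2 and Tk1 are the lowest of their groups on both scales.

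Clamp, clamp loader and RPA genes were the most abundant group. Pcna, the sliding clamp that also serves DNA repair (GRCm38 chromosome 2, 132249162 to 132253314, minus strand), had 1327 per kb. Rpa1, Rpa2 and Rpa3 had 1795, 486 and 470 per kb, and they too act in repair outside S phase. Of the clamp loader, Rfc2 had 576, Rfc1 409, Rfc5 256, Rfc3 182 and Rfc4 94.6 per kb. Of these 9 genes, 7 lay above the median of coding genes, and Rfc3 and Rfc4 did not. By transcript length Rfc3 was above it and Rfc5 was not, and the highest clamp loader gene was Rfc1 with 296. As deposited, only Pcna, Rfc1, Rfc2, Rpa1 and Rpa2 of this group lay above the median coding gene. Pcna was 3.24 times above Rfc1 per kb and below it as deposited (ratio 0.739).

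The processed pseudogene Pcna-ps2 was listed with 278 normalized counts, 26.8% of the 1039 of Pcna. Reads that match both may have been divided between them, so the level of Pcna is uncertain. Rfc4 overlaps the gene Eif4a2 on the other strand by 194 bases, and Eif4a2 had 8985 normalized counts against 105 for Rfc4. The libraries were made with a kit that keeps strand, but whether the counting used strand is not given in the sources used here, so the level of Rfc4 is uncertain. In all, 15 members overlap an annotated gene on the other strand, among them Orc1, Tk1 and Rfc2. For at least 5 of the 15, Mcm7, Gins2, Rfc4, Rfc5 and Ccne2, an overlapping gene had the higher level. Some overlapping genes were not found by symbol and could not be compared, among them Ufd1 at Cdc45, Tmem258 at Fen1, Zswim9 at Lig1 and Gm20708 at Tk1. Wsb2, which shares 499 bases with Rfc5, had 1783 normalized counts against 260 for Rfc5, and Gse1, which shares 2758 bases with Gins2, had 264 against 40.9.

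Genes that finish the lagging strand were low per kb. Fen1 had 23.3 per kb and Lig1, the ligase that seals Okazaki fragments, had 71.7. As deposited Fen1 was the lowest member with 26.5, while Lig1 had 200, above the members' median of 173.

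Nucleotide synthesis genes differed within 1 enzyme. Ribonucleotide reductase makes deoxyribonucleotides from a large subunit, Rrm1, and a small one, Rrm2 or its p53-inducible counterpart Rrm2b, which serves cells outside S phase. Rrm1 had 382 per kb and Rrm2 had 45.1, an 8.46-fold difference that was 17.2-fold as deposited. Rrm2b, which is no member, had 1122 per kb and was 24.9 times above Rrm2 (10.8 times by transcript length and 22.4 times as deposited). Thymidine kinase showed the same order of isozymes. Tk1, the cytosolic S phase enzyme, had 155 per kb, and Tk2, the mitochondrial enzyme that nondividing cells use, had 1116, a ratio of 7.20 (4.99 by transcript length and 8.34 as deposited). Tyms, thymidylate synthase, had 174 per kb with 160 mean normalized counts. By transcript length it had 41.2, since its longest annotated transcript is much longer than its coding sequence.

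Of the 4 regulators, E2f1, Ccne1 and Uhrf1 were below the members' median per kb and Ccne2 was above it. By transcript length Ccne2, with 57.8, was below the members' median of 73.3. E2f1, an activator of S phase genes, had 63.4 per kb. Of the other activators of the family, E2f2 had 59.1 and E2f3 214. E2f4, E2f5 and E2f6, which mostly repress, had 219, 278 and 639, and the repressors E2f7 and E2f8 had 7.65 and 9.39. Of the cyclins that open S phase, Ccne1 had 25.7 and Ccne2 143 per kb, a 5.57-fold difference that was 3.67-fold by transcript length and 5.52-fold as deposited. Ccnd1, the cyclin of the step before, had 2592 and was 18.1 times above Ccne2 (10.6 times by transcript length and 13.2 times as deposited). Cdk2, the kinase partner of both E cyclins, had 1259. Uhrf1, which carries DNA methylation through replication, had 39.9 per kb.

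The promoter letters printed above were set beside the levels. Mcm6, the highest of the ring genes, held 2 copies of TTTGGCGC, at positions -110 and -47 from the RefSeq start. Cdc6, the lowest member per kb, held the other motif at position -138. The genes with a motif thus spanned 15.8 to 402 per kb, with a median of 133, and the 22 without spanned 17.0 to 1795, with a median of 105. The levels of genes with and without the letters overlapped. A match is a description of letters, not of binding.

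Other genes of replication and cell cycle control were set beside the members. They came from lists of licensing and firing, fork, nucleotide, and cyclin and E2F genes. Of 68 such genes, 66 were in the table under these symbols, and 56 of them had at least 100 mean normalized counts, against 27 of 40 members. Their median was 314 per kb, against 120 for the members. The 66 include genes that act before or outside S phase, such as Ccnd1 and Rrm2b. In the licensing and firing list, the 3 highest were Orc4, Dnajc9 (891) and Orc3 (699), and the 3 lowest Dbf4 (55.9), Mcm8 (48.0) and Recql4 (4.56). Dbf4 activates the kinase Cdc7, which fires loaded origins. In the fork list, Pole4, Pole3 and Top2b (1279) were highest, and Chaf1b (30.5), Chtf18 (16.2) and Clspn (9.49) lowest. Clspn relays the checkpoint signal at stalled forks. In the nucleotide list, Rrm2b, Tk2 and Samhd1 (862), an enzyme that degrades deoxynucleotides outside S phase, were highest, and Shmt2 (178), Shmt1 (154) and Dctd (62.5) lowest. In the cyclin and E2F list, Ccnd2 (5098), Ccnd1 and Cdk2 were highest, and E2f2 (59.1), E2f8 (9.39) and E2f7 (7.65) lowest.

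Markers of dividing cells were detected. Of the 8 listed, Cdk1 had 160 per kb, Top2a 69.8 and Mki67 30.2, and Plk1 was lowest with 7.63. Their median was 27.8 per kb, and 3 of 8 had at least 100 mean normalized counts, a level that 37.9% of all genes reached. Ccnb1, Aurkb, Bub1 and Birc5 had 23.8, 26.3, 26.8 and 19.7 as deposited. As deposited, Top2a had 320 and Mki67 288, both above the members' median of 173, and their lower place per kb comes from long coding sequences (4584 and 9531 bases).

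**Figure D3:**
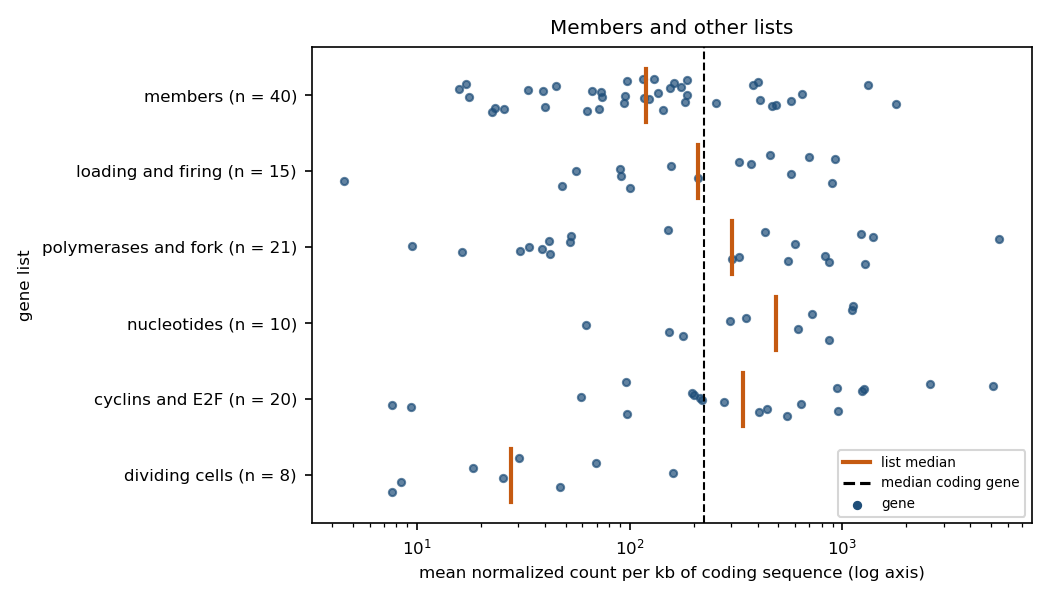
Each point is 1 gene by its mean normalized count per kb of coding sequence on a log axis. The lists are the members, other genes of replication and cell cycle control, and the markers of dividing cells. The members' median of 120 lies below the dashed median of coding genes at 223 and above the 27.8 of the markers of dividing cells.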

How the data were processed

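Total RNA libraries of RPE/choroid from 3 young and 3 aged mice were analysed. Per the methods of the study, the authors trimmed reads with BBDuk, mapped them with STAR to Ensembl transcripts of GRCm38, obtained TPM values with Sailfish, turned these into normalized counts by total count scaling and ran DESeq2. The deposited baseMean is the authors' mean normalized count over all libraries, a signal that is never negative. TPM corrects for length, and how this step treated length is not given in the sources used here, so levels were compared both per length and as deposited. The check of levels by length class was added after the data had been seen. The authors' table also holds 5 columns of their own comparison of the ages (fold change, its error, a statistic and p-values), which were not used. No column gives a value per library, so no test of age was run and depth per library is unknown here. Coding lengths came from GENCODE M21 (GRCm38) for all 40 members, since no protein table was used. A percentile is the share of genes with a lower level. Functions for percentiles, ratios and motifs were tested on simulated data. Python 3.11.15, pandas 2.3.3 and matplotlib 3.10.9 were used. The members and lists were chosen with earlier results of these data known. All members and all listed markers of dividing cells were described. Of the other lists, the subunits, isozymes and E2F relatives of members and the 3 highest and 3 lowest were described.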

Additional observations from a re-analysis of the deposited data

How the results depend on the processing

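No paired analysis was possible because single libraries have no values here, and for the same reason other normalizations, other pseudocounts and fits that leave out a mouse were not run. No table of RefSeq proteins was used, so coding genes of GENCODE took its place, a choice made after the data had been seen, as were the other lengths tried for pairs of genes and for the number of members above the median coding gene. The percentile of the members' median level was 57.0 among genes above 0. It was 66.2 with genes at 0 included, 38.9 among protein-coding genes and 36.1 among genes of at least 10 normalized counts. At least 200 normalized counts were reached by 17 members.

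The ratio of the highest to the lowest subunit moved with the length used. As deposited it was 4.62 for the Mcm ring, 11.1 for GINS, 5.60 for polymerase alpha and primase, 13.4 for RFC, 20.3 for RPA, 17.2 for Rrm1 to Rrm2, 26.4 for ORC, 2.80 for polymerase delta and 23.2 for polymerase epsilon. By transcript length the values were 3.59, 30.5, 2.15, 3.60, 3.14, 9.43, 34.7, 6.06 and 65.7 in the same order. Of 34 ratios between pairs of genes under other lengths, 3 changed order, each as deposited. They were Pole2 to Pole (0.700), Pold2 to Pold1 (0.867) and Pcna to Rfc1 (0.739). The share of members with an E2F motif was 18.8% in the bases before the start alone, where 1.51% of all genes held one, and 56.2% with motifs shortened to TTCCCGC and TTGGCGC, which 7.79% of all genes held.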
